A study of Homo sapiens with 372 samples.

Results

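Single cells of A2780, an established human ovarian cancer cell line, were compared after 2 h of celecoxib and without treatment. The members were all cells that the deposited table names as celecoxib 2 h (63 cells, 75 µM celecoxib) or as controls (46 cells, no drug), out of 338 cells in 6 conditions. All 9664 genes of the table were compared. The 4 other conditions were 16 h of celecoxib at the same dose, 16 h and 48 h of paclitaxel at 5 nM, and both drugs for 16 h. Every condition was captured in 1 run of the Fluidigm C1 system, which isolates single cells on a chip, and no separate culture is named. Each condition therefore counted as 1 sample, the cells were not replicates of it, and no test or p-value was made from them. Drug, capture run and, for this pair, the index block cannot be told apart, and the difference has no replicate check. The blocks were inferred here by cutting the sample number that ends the label of each cell into groups of 96. That they stand for blocks of library indices was assumed.

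Celecoxib inhibits cyclooxygenase 2, the inducible enzyme that makes prostaglandins. Cells that run short of amino acids or meet other stresses phosphorylate the initiation factor eIF2, which slows translation in general while raising that of the transcription factor ATF4. ATF4 and its target CHOP (gene DDIT3) then raise genes for amino acid synthesis, amino acid uptake and tRNA charging, a programme known as the integrated stress response. Genes of mitosis and of S phase are transcribed periodically and serve as markers of dividing cells.

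The values are E-values, that is log2(N/10 + 1), where N is the TPM (a relative abundance of transcripts) after the authors normalized each cell to a spike-in RNA. A difference in mean E-value between the groups is given on 2 scales. The deposited scale keeps the spike-in normalization and so contains the total RNA of a cell. The second scale, the same total per cell, rescales the linear values within each cell to a common sum and then forms the E-value again. Genes past a difference of 1.5-fold (0.58 in log2 units) are called up or down. This is a size limit and not a test.

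Promoters of 4 of the leading genes that hold short motifs of known regulators are shown. Marked motifs differ between the pairs, and CCAAT boxes in CHAC1 are left unmarked. The sequences are from RefSeq on GRCh38.p14, are written on the strand of the gene, and end at the base before the RefSeq start of the gene. In the first pair, ASNS (chr7:97872409-97872658, minus strand) and CHAC1 (chr15:40953221-40953470, plus strand), capitals mark the element TGATGNAA or its reverse complement, to which dimers of C/EBP and ATF proteins bind. In the second pair, CDC20 (chr1:43358731-43358980, plus strand) and CCNB1 (chr5:69166900-69167149, plus strand), capitals mark the CCAAT box and, in CDC20, TTTGAA or its reverse complement, the core of the cell cycle homology region.
ASNS: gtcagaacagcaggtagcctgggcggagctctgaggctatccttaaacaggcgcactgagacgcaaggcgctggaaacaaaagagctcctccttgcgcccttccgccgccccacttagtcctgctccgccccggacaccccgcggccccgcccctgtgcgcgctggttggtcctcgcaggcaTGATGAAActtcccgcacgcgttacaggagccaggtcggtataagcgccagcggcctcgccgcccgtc
CHAC1: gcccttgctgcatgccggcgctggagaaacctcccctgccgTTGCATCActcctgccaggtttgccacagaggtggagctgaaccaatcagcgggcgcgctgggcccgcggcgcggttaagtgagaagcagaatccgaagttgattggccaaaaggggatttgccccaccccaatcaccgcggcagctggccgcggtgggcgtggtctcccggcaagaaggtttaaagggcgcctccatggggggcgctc
CDC20: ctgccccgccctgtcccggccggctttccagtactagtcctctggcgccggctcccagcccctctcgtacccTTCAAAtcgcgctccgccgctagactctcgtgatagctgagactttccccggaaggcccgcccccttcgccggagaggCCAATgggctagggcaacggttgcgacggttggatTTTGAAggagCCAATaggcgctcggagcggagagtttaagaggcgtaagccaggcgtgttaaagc
CCNB1: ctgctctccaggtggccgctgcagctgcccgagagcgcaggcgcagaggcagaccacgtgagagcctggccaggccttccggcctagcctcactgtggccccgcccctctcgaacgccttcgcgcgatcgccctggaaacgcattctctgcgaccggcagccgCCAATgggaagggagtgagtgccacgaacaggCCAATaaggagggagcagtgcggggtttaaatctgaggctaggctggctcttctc

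The 4 genes lie on hg38 at chr7:97851677-97872542 (ASNS), chr15:40952962-40956512 (CHAC1), chr1:43358981-43363203 (CDC20) and chr5:69167135-69178245 (CCNB1) in the GENCODE annotation, which begins ASNS, CHAC1 and CCNB1 upstream of the RefSeq start. The whole window of CHAC1 and the ends of those of ASNS, with its marked element, and CCNB1 therefore fall inside the genes as GENCODE draws them. The element TGATGNAA was searched on both strands of 300-base windows, 250 bases before to 50 bases after the start, of the 7984 genes that had one. It occurred in 202 of these windows (2.53%). Of the 93 genes with a window that were up on both scales it occurred in 16 (17.2%), and of the 898 that were down in 15 (1.67%). It was in only 4 of the 14 windows of the largest rises (ASNS, C1orf54, CARS and CHAC1) and in 0 of the 14 of the largest falls. Among the aminoacyl-tRNA synthetases 7 of 16 windows held it (AARS, CARS, GARS, IARS, MARS, NARS and TARS), and in the list of ATF4 and CHOP response genes 8 of 30. Its position was −68 from the start in ASNS and, on the other strand, −209 in CHAC1. The CCAAT box was found in 44.4% of all windows, in 392 of the 898 windows of all falls (43.7%), in 13 of the 14 windows of the largest falls, in 8 of the 14 of the largest rises and in 32 of 45 windows of G2/M genes. TTTGAA, searched after the data had been seen, was found in 13.4% of all windows and in 120 of the 898 of all falls (13.4%). It was in 4 of the 14 windows of the largest falls, in 2 of the 14 of the largest rises and in 33 of 45 of G2/M genes. Over all falls neither motif was more frequent than over all genes. These are matches of letters, and binding was not measured.

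Cells of the celecoxib 2 h run held less total RNA relative to the spike-in. Taken against the control median, the log2 total of the 63 cells ran from −1.46 to 1.09 with a median of −0.76, and that of the 46 control cells from −2.13 to 0.80. The groups overlapped, but 56 of 63 treated cells were under the control median. The median number of genes with an E-value above 0 was 6158 (4927 to 8156) against 6630 (4746 to 7854). Read depth per cell is unknown. The authors had removed cells with low housekeeping gene expression, which were 3 of 66 celecoxib 2 h cells and 11 of 57 control cells. Of the marker lists, 1 of 12 epithelial and ovarian genes was measured (KRT18, mean level at the same total 0.58 in control and 0.93 in celecoxib 2 h cells), 1 of 13 immune, 6 of 13 stromal and 0 of 7 endothelial genes, so that the label could be checked against few markers. By the authors' own assignment of cell states, 33 of the 63 cells were Suppressive, 26 Control and 4 Activation.

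On the deposited scale 108 genes were up (1.12% of all) and 2486 were down (25.7%). At the same total per cell 404 were up (4.18%) and 1048 down (10.8%). The 108 deposited rises were also up at the same total, and the 1048 falls at the same total were also down as deposited. Treated cells had lower totals, so rescaling mostly raised their values. This overlap therefore follows largely from the rescaling and is no check of the genes. The other rises at the same total and the other deposited falls passed on 1 scale only. No gene passed the limit in opposite directions. Over all genes the median difference was −0.26 deposited and −0.03 at the same total. Rises made up 4.16% of the genes past the limit on the deposited scale, 27.8% at the same total, and 68.0% at the same total when linear means were compared in place of mean E-values, so the balance of rises and falls depended on the scale. The inferred blocks give a background from the paclitaxel 48 h run, whose cells fell in both. At the same total, its 22 cells of the celecoxib block were set against its 31 cells of the control block. Of all 9664 genes, 409 were over 1.5-fold up and 733 down, with a median block difference of −0.03. The counts for celecoxib 2 h against control were 404 and 1048. Over the 108 rises the median block difference was −0.10 (9 up), and over the 1048 falls it was −0.16 (166 down). Block falls were thus a larger share of the 1048 falls than of all genes. Block rises were likewise a larger share of the 108 rises. The part of the block in the counts was not tested.

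**Figure D1:**
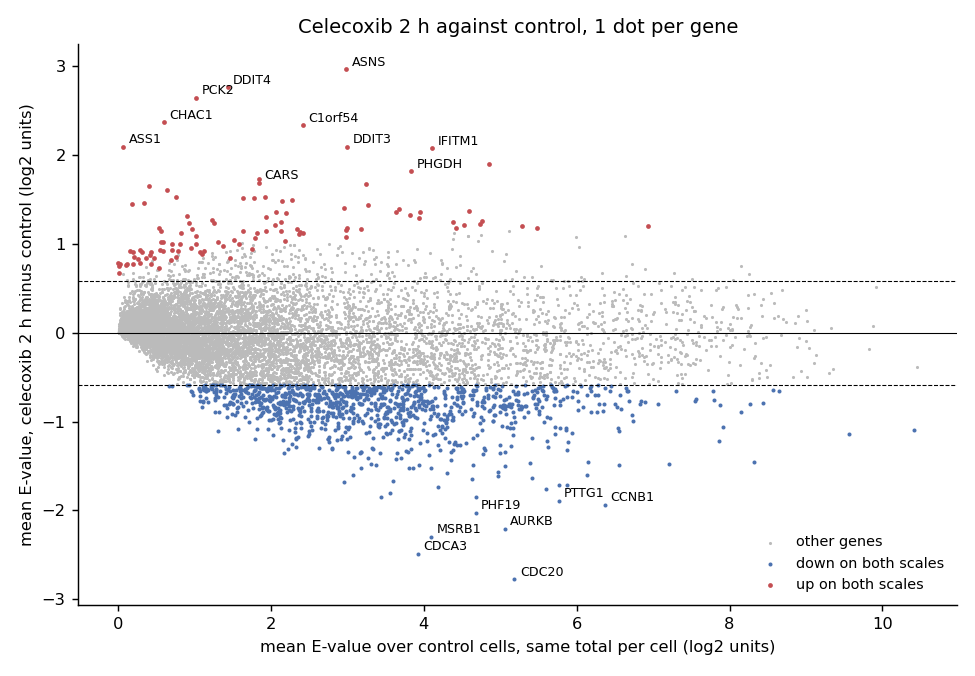
Difference in mean E-value at the same total per cell (celecoxib 2 h minus control, log2 units) against the mean E-value over the 46 control cells, 1 dot per gene for 9664 genes. Dashed lines mark the 1.5-fold limit, and coloured dots passed it on both scales: 108 up (led by ASNS, DDIT4, PCK2 and CHAC1) and 1048 down (led by CDC20, CDCA3 and MSRB1).

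ASNS, DDIT4, PCK2 and CHAC1 had the largest rises, and 7 of the 15 largest were members of the ATF4 and CHOP list. ASNS, the enzyme that makes asparagine, had levels at the same total of 0 to 5.77 in control cells (median 3.19) and of 0 to 7.22 in celecoxib 2 h cells (median 6.12). In 59 of 63 cells ASNS lay above the 90th percentile of the control cells, and 1 cell was at 0. Its mean rose by 2.97 log2 units at the same total (control 2.98 ± 1.27 SD over cells, celecoxib 2 h 5.95 ± 1.09) and by 2.36 on the deposited scale. CHAC1, which degrades glutathione, was above 0 in 9 of 46 control cells (19.6%, exact Clopper-Pearson 95% interval 9.36 to 33.9%) and in 51 of 63 treated cells (81.0%, 69.1 to 89.8%). These intervals, like all shares of cells here, cover counting error only. Its median at the same total was 0 in control and 3.71 in celecoxib 2 h cells, and the highest control cell reached 4.41. The CHAC1 difference was 2.37 at the same total and 1.94 deposited.

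DDIT3, which encodes CHOP, had a median level at the same total of 3.44 in control and 5.45 in celecoxib 2 h cells, with highest cells at 6.73 and 7.99. The ranges overlapped widely, 24 of 63 cells lay above the control 90th percentile, and the difference was 2.10 (1.56 deposited). TRIB3, a pseudokinase that feeds back on ATF4, was above 0 in 11 of 46 and 38 of 63 cells and differed by 1.65. DDIT4, an inhibitor of mTORC1, had a median of 0.11 in control and 4.77 in celecoxib 2 h cells, with a difference of 2.76. PCK2, the mitochondrial phosphoenolpyruvate carboxykinase, had medians of 0.18 and 3.89 and a difference of 2.65, and 46 of 63 cells lay above the control 90th percentile. ASS1, which joins citrulline and aspartate on the way to arginine, was above 0 in 2 of 46 control cells (4.35%, 0.531 to 14.8%) and in 35 of 63 treated cells (55.6%, 42.5 to 68.1%).

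The same list holds 6 enzymes of serine and one-carbon metabolism, and all 6 were up at the same total. PHGDH, the first enzyme of serine synthesis, had levels at the same total of 0 to 5.89 in control cells (median 4.22) and 1.88 to 7.22 in celecoxib 2 h cells (median 5.87), a difference of 1.82. The next enzymes of the pathway, PSAT1 and PSPH, differed by 1.24 and 1.17. In one-carbon metabolism of the mitochondrion, SHMT2 differed by 0.90, MTHFD2 by 1.29 and ALDH1L2 by 1.46. ALDH1L2 was above 0 in 9 control and 42 treated cells. On the deposited scale 5 of these 6 enzymes also passed the limit, and SHMT2 did not (0.36).

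The list holds 8 transporters of amino acids, of which 3 were up at the same total. SLC7A11, the cystine transporter, was above 0 in 12 of 46 control cells (26.1%, 14.3 to 41.1%) and in 54 of 63 treated cells (85.7%, 74.6 to 93.3%), with a difference in mean level of 1.46 at the same total. Its partner chain SLC3A2 had medians of 3.99 and 5.48 and a difference of 1.39, and the glutamine transporter SLC1A5 one of 1.13. SLC7A5, the large neutral amino acid transporter that shares the SLC3A2 chain, differed by 0.37, and SLC38A2 by 0.08, both under the limit. The other transporters of the list, SLC1A4 (0.40), SLC7A1 (0.34) and SLC6A9 (0.14), were under it too, and all 8 had a higher mean at the same total in celecoxib 2 h cells.

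The transcription factors of the list, DDIT3 included, had smaller differences than ASNS or CHAC1. ATF4 itself had levels at the same total of 2.21 to 6.56 in control cells (median 4.71) and 0 to 6.90 in celecoxib 2 h cells (median 5.94). Of the 63 cells, 49 lay above the control 90th percentile, and the difference was 1.10 at the same total and 0.55, just under the limit, on the deposited scale. CEBPB differed by 1.14, CEBPG by 0.83, ATF5 by 0.78 and JDP2 by 0.76 at the same total. PPP1R15A, the eIF2 phosphatase subunit that ends the response, differed the other way, by −0.67 as deposited and by −0.52, under the limit, at the same total. Its block difference in the paclitaxel 48 h run was −0.50, and the part of the block was not tested.

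Of the 38 measured genes in the list of ATF4 and CHOP response genes, 25 were up and 1 down at the same total, against 4.18% and 10.8% of all genes, with a median difference of 0.80. On the deposited scale 19 were up and 2 down, with a median of 0.58. The gene down on both scales was ALDH18A1, an enzyme of proline synthesis (−0.63 at the same total). Averaged over the list, single cells had levels at the same total of 0.85 to 2.36 in the control run (median 1.57) and of 0.96 to 3.45 in the celecoxib 2 h run (median 2.52). Of the 63 cells, 61 lay above the control median and 38 above the highest control cell.

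**Figure D2:**
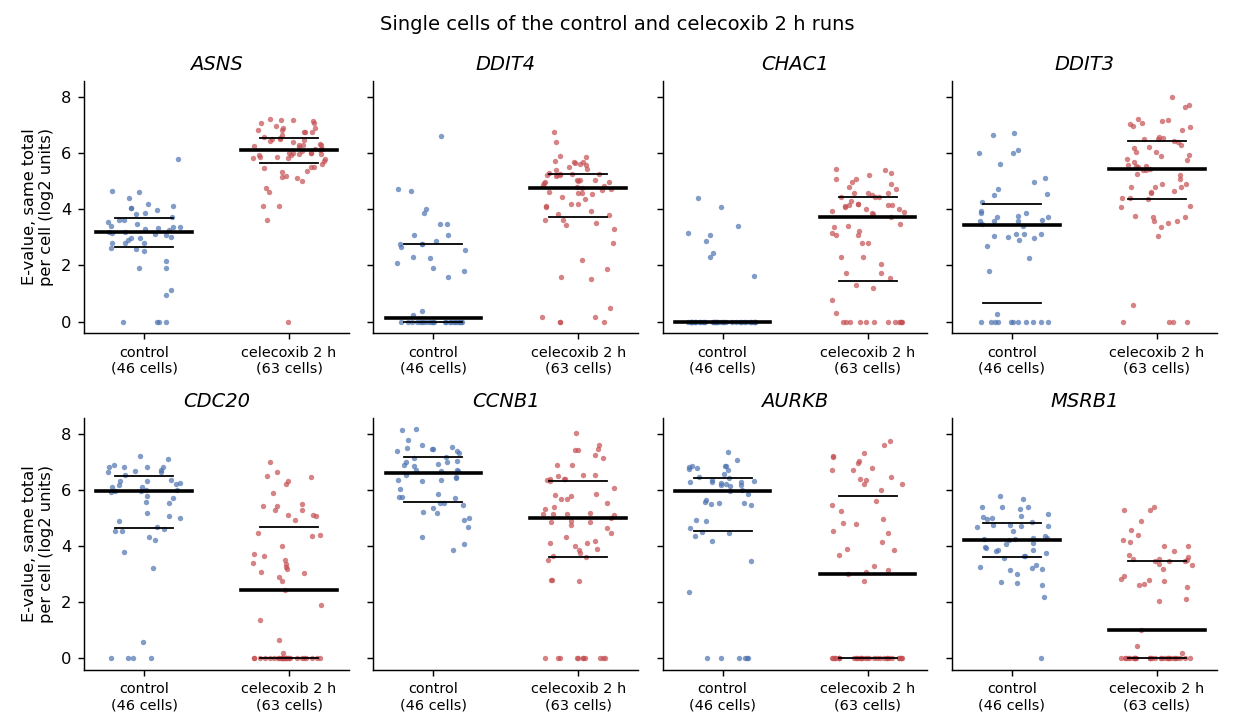
E-values at the same total per cell (log2 units) of 8 genes in the 46 control and 63 celecoxib 2 h cells, 1 dot per cell, with a thick line at the median and thin lines at the quartiles. ASNS separates the groups most (59 of 63 cells above the control 90th percentile), while CDC20, AURKB and MSRB1 in celecoxib 2 h cells spread from 0 through values below most control cells to the control range.

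The aminoacyl-tRNA synthetases, which load amino acids onto tRNA, split by gene. At the same total 11 of 20 were up and 3 down (median 0.80), and on the deposited scale 4 were up and 5 down (median 0.22). At the same total these were 55.0% up and 15.0% down, against 4.18% and 10.8% of all genes. Deposited, they were 20.0% and 25.0%, against 1.12% and 25.7%. CARS differed by 1.69, AARS by 1.52, and GARS and SARS by 1.22 each. SARS had medians of 4.71 in control and 5.96 in celecoxib 2 h cells, and 53 of 63 cells lay above the control 90th percentile. MARS differed by 1.06. In contrast, both chains of the phenylalanine enzyme were lower: FARSA had medians of 4.59 and 3.48 and differed by −1.32, and FARSB by −0.95. The gene for the arginine enzyme, RARS, was the third that was down (−0.65). In the paclitaxel 48 h run the celecoxib block minus the control block gave −1.52 for CARS, −0.46 for GARS and between −0.11 and 0.05 for AARS, SARS and MARS. It gave −0.61 for RARS, close to its difference here, −0.56 for FARSA and −0.11 for FARSB. The part of the block in these differences was not tested.

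Among the other leading rises, C1orf54 differed by 2.34, IFITM1 by 2.08, IFITM2 by 1.91, BEX2 by 1.73, SERPINB6 by 1.67 and TXNIP by 1.61 at the same total. IFITM1 and IFITM2 encode membrane proteins that restrict virus entry. Their sequences are very similar, so that reads may have been divided between them. IFITM1 levels ran from 0 to 8.80 in control cells (median 4.34) and from 0 to 8.75 in celecoxib 2 h cells (median 6.74), and the 2 ranges were nearly the same. Of 17 interferon response genes, 4 were up on both scales (IFITM1, IFITM2, IFI27L2 and IFI35). That is 23.5%, against 4.18% of all genes up at the same total.

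CDC20 and CDCA3, both of the G2/M list, had the largest falls. CDC20, the activator of the anaphase-promoting complex, had levels at the same total of 0 to 7.20 in control cells (median 5.96) and of 0 to 6.98 in celecoxib 2 h cells (median 2.44). It was above 0 in 42 of 46 control cells (91.3%, 79.2 to 97.6%) and in 36 of 63 treated cells (57.1%, 44.0 to 69.5%). The mean fell by 2.78 at the same total and by 3.04 on the deposited scale. CDCA3, which promotes entry into mitosis, was above 0 in 39 of 46 (84.8%, 71.1 to 93.7%) and 20 of 63 cells (31.7%, 20.6 to 44.7%) and differed by −2.49. AURKB, a kinase of the centromere, had medians of 5.97 and 2.98, yet its highest treated cell (7.74) exceeded the highest control cell (7.34), and the difference was −2.21. Celecoxib 2 h cells thus ranged from 0 to control levels of these genes.

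CCNB1, cyclin B1, was above 0 in every control cell (3.86 to 8.16, median 6.59) and ran from 0 to 8.01 in celecoxib 2 h cells (median 4.98), a difference of −1.94. In cells with at least 6000 genes above 0 the CCNB1 difference was −1.10 and that of CDC20 −2.18. PTTG1 (securin) differed by −1.90 (−0.36, under the limit, with linear means), CDKN3 by −1.85, PLK1 by −1.85, UBE2C by −1.71 (−0.54, under the limit, with linear means) and CCNA2 by −1.68. In the G2/M list of 54 genes 0 were up and 21 down at the same total (38.9%, against 10.8% of all genes; 38 down deposited), with a median of −0.45. The median was −0.12 in cells with at least 6000 genes above 0 and also with linear means, and −1.07 with a pseudocount of 1. CCNB2 (−1.65), AURKA (−1.49) and BIRC5 (−1.20) were among them. The mean over the list lay below the control median in 44 of 63 cells, with ranges of 1.18 to 4.49 in control and 1.01 to 4.95 in celecoxib 2 h cells. The treated cells thus spanned the whole control range, with more of them at its lower end.

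Of 42 S phase genes 16 were down at the same total (38.1%, against 10.8% of all genes; 23 deposited) and 0 up, with a median of −0.38. This median was −0.14 in cells with at least 6000 genes above 0, −0.13 with linear means and −0.91 with a pseudocount of 1. RRM2, a subunit of ribonucleotide reductase, differed by −1.73, GMNN, the inhibitor of replication licensing, by −1.50, MCM7 of the replicative helicase by −1.10, and the sliding clamp PCNA by −0.88. With linear means PCNA differed by −0.11 and in cells with at least 6000 genes by −0.35, both under the limit. PCNA ranged from 0 to 7.77 in celecoxib 2 h cells and from 0 to 6.70 in control cells.

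**Figure D3:**
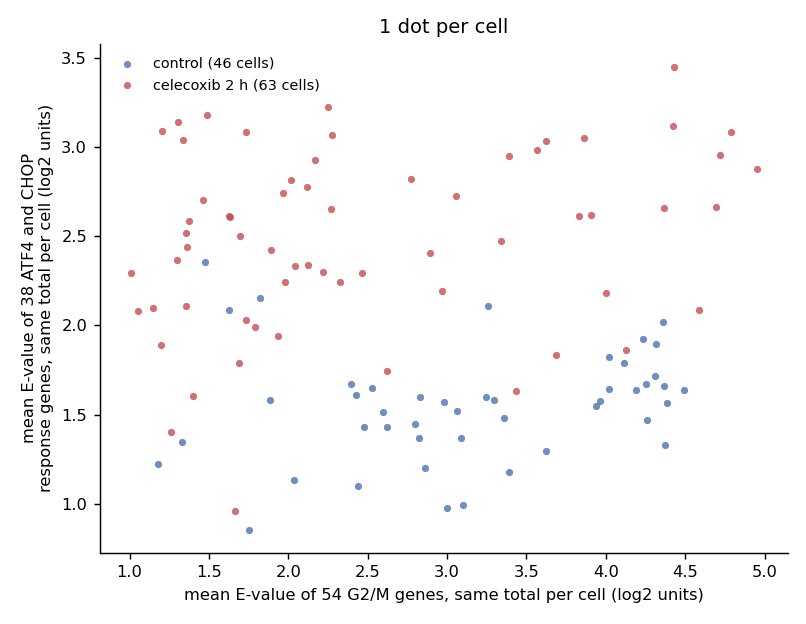
Mean E-value at the same total per cell (log2 units) of 38 ATF4 and CHOP response genes against that of 54 G2/M genes, 1 dot per cell for 46 control and 63 celecoxib 2 h cells. The treated cells lie higher on the vertical axis along the whole horizontal range, and 38 of them lie above the highest control cell (2.36).

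CCNB1, PTTG1, CDKN3, PLK1 and CCNA2, given above, are not members of the S and G2/M lists. The other largest falls outside these lists included MSRB1, PHF19, NXF1, STRA13 and TUBG1. MSRB1, a methionine sulfoxide reductase, had a median of 4.22 (0 to 5.79) in control and 1.00 (0 to 5.38) in celecoxib 2 h cells, and was above 0 in 45 of 46 (97.8%, 88.5 to 99.9%) and 34 of 63 cells (54.0%, 40.9 to 66.6%). Its difference was −2.30, and 40 of 63 cells lay below the control 10th percentile. PHF19, a component of Polycomb complexes, differed by −2.03, NXF1, the main export receptor of mRNA, by −1.80, STRA13 by −1.76, and TUBG1, gamma-tubulin of the centrosome, by −1.71. STRA13 is the older name of CENPX. The genes SHQ1 and NUP35 went from 41 of 46 cells to 27 of 63 cells each above 0. POSTN (periostin) went from 23 of 46 to 3 of 63, but its median in control cells was only 0.06, and its mean differed by −0.25.

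Proteasome subunits, which degrade tagged proteins, were lower in most members. Of 35 subunits, 34 were down on the deposited scale (97.1%, median −1.08) and 16 at the same total (45.7%, median −0.56), and 0 were up on either. Over all genes 25.7% were down deposited and 10.8% at the same total. PSMB10, an immunoproteasome subunit, differed by −1.52, PSMD11 by −1.07, PSMC2 by −0.81 and PSMC1 by −0.80 at the same total, while PSMD7 differed by 0.01. The mean over the subunits ran from 5.17 to 6.58 in control cells (median 6.26) and from 4.94 to 6.17 in celecoxib 2 h cells (median 5.68). None of the 63 treated cells reached the control median, and 59 lay below the control 10th percentile.

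Of 23 heat shock proteins 8 were down at the same total (34.8%, against 10.8% of all genes), 17 were down deposited (73.9%, against 25.7%) and 0 were up. HSPA8, the constitutive HSP70, had levels of 3.99 to 9.14 in control cells (median 8.10) and of 4.91 to 8.17 in celecoxib 2 h cells (median 6.73), and 62 of 63 treated cells were under the control median. Its difference was −1.22, and those of the co-chaperones HSPH1 and DNAJA1 were −1.05 and −0.86. In the list of endoplasmic reticulum chaperones and XBP1 targets, 3 of 35 were up at the same total (OS9 by 0.73, HERPUD1 by 0.65 and ATF6 by 0.60) and 4 down, led by SDF2L1 (−1.27) and CRELD2 (−1.05), with a median of 0.01 at the same total and of −0.46 deposited. Of this list 8.57% were up and 11.4% down at the same total, against 4.18% and 10.8% of all genes. The block difference in the paclitaxel 48 h run was −1.37 for CRELD2, larger than its difference here, −0.55 for SDF2L1 and 0.59 for OS9. HSPA5 (BiP), the main chaperone of that compartment, differed by 0.19 at the same total and by −0.36 deposited, neither past the limit.

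**Figure D4:**
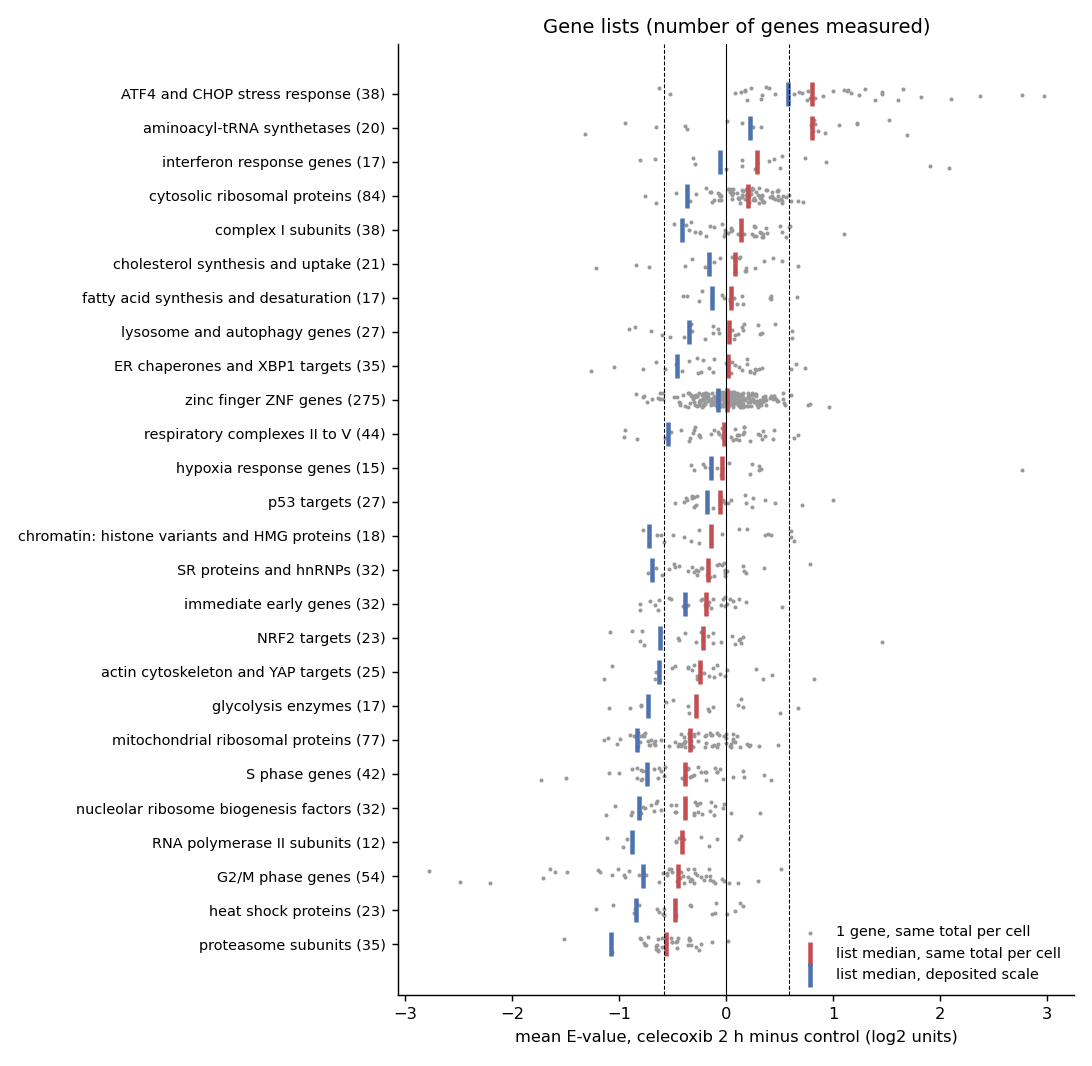
Differences in mean E-value (celecoxib 2 h minus control, log2 units) for the members of 26 gene lists with at least 12 measured genes, 1 grey dot per gene at the same total per cell, with list medians at the same total (red) and on the deposited scale (blue). The ATF4 and CHOP list and the synthetases have medians of 0.80 at the same total, and the proteasome has the lowest, −0.56. Dashed lines mark the 1.5-fold limit.

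Lists of the machinery of gene expression are read against 10.8% of all genes down at the same total and 25.7% deposited. The share down on both scales rose with level up to 6 and was lower above it. It was 23.8% of genes with a mean control level of 2 to 4, 27.0% at 4 to 6 and 13.0% from 6. The lists were not matched for level. At the same total, 12 of 32 nucleolar factors of ribosome biogenesis were down (37.5%; NOP16 by −1.13 and UTP4 by −1.04), as were 23 of 77 mitochondrial ribosomal proteins (29.9%; MRPS12 by −1.14) and 3 of 12 subunits of RNA polymerase II (25.0%; POLR2C by −1.11). Deposited, the shares were 65.6%, 74.0% and 83.3%. At the same total, the nucleolar list had a median difference from control of −0.39 in this run and −0.04 in the celecoxib 16 h run. In the paclitaxel 16 h, paclitaxel 48 h and combination runs it was −0.39, −0.39 and −0.35. In the same order of runs, the RNA polymerase II list had −0.42, −0.19, −0.38, −0.31 and −0.42. Mitochondrial ribosomal proteins had −0.34, −0.11, −0.15, −0.32 and −0.32. None of these lists had a gene up on either scale in the celecoxib 2 h run. Cytosolic ribosomal proteins differed from them: 4 of 84 were up and 2 down at the same total, and their median changed sign with the scale, from −0.37 deposited to 0.20 at the same total. Complex I of the respiratory chain also changed sign (median −0.42 and 0.14). Its subunit NDUFB1 had levels of 5.54 to 7.81 in control and 6.69 to 8.76 in celecoxib 2 h cells and lay above the control median in 63 of 63 cells, with a difference of 1.10 (0.52 deposited). In the paclitaxel 48 h run NDUFB1 was higher by 0.70 in the celecoxib block.

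GAPDH and ACTB, abundant transcripts often used as references, were under their control medians in 62 of 63 cells each. GAPDH, a glycolytic enzyme, had levels at the same total of 9.69 to 10.94 in control cells (median 10.40) and of 8.38 to 10.52 in celecoxib 2 h cells (median 9.36), and 60 of 63 cells lay below the control 10th percentile. ACTB, beta-actin, differed by −1.14 and GAPDH by −1.10. In the paclitaxel 48 h run the celecoxib block was lower by 0.50 for ACTB and by 0.38 for GAPDH. Of 17 glycolysis enzymes 4 were down (23.5%; GAPDH, ENO1, LDHA and ALDOA) and 1 up (ALDOC by 0.67). Of 25 actin and YAP genes 4 were down (16.0%) and 1 up (VCL by 0.82). Over all genes 10.8% were down and 4.18% up at the same total.

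Immediate early genes, which respond to stimuli within the first hour, were not up in any of 32 cases on either scale. Over all genes only 4.18% were up at the same total and 1.12% deposited, and a count of 0 in 32 is close to these shares. At the same total 6 were down (18.8%, against 10.8% of all genes). They were ID1 and ID2 (−0.81 each), MYC (−0.72), DUSP1 (−0.67), FOS (−0.64) and EGR1 (−0.63). FOS levels ran from 0 to 8.32 in control cells (median 5.16) and from 0 to 7.28 in celecoxib 2 h cells (median 4.74). These differences were smaller than the SD over control cells, which was 2.84 for FOS and 1.73 for MYC.

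The genes nearest to the drug target were measured in small number. List counts in this paragraph are read against 4.18% of all genes up and 10.8% down at the same total. PTGS1 and PTGS2, the cyclooxygenase genes, were not analysed here. Of 5 measured genes of prostaglandin synthesis and breakdown, PTGR1, a prostaglandin reductase, differed by 0.60 and PTGES2, a prostaglandin E synthase, by −0.63 at the same total. The block differences in the paclitaxel 48 h run were −0.68 and −0.81 for these genes. CA11, a catalytically inactive member of the carbonic anhydrase family, differed by 0.94 (0.52 deposited). Among 21 genes of cholesterol synthesis 1 was up (SREBF2 by 0.67) and 3 down (ACAT2 by −1.21, EBP by −0.85 and NSDHL by −0.73). All 3 falls were also lower in the celecoxib block of the paclitaxel 48 h run. The block difference was −1.64 for ACAT2, −0.63 for EBP and −0.58 for NSDHL, and −0.72 for SREBF2. In the fatty acid list of 17, SCD was up by 0.66 and 0 were down. Of 27 p53 targets, GDF15 (0.99) and SESN2 (0.70), both also in the ATF4 list, were up at the same total, and 0 were down. GDF15 was above 0 in 8 of 46 and 25 of 63 cells, but its highest level was in a control cell (9.10 against 7.21). Of 9 genes of the BCL2 family 3 were down: BID by −0.82, BAD by −0.77 and BCL2L12 by −0.72. In the paclitaxel 48 h run their block differences were −0.68, −0.13 and −0.20, in the same order. BID and BAD promote apoptosis.

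The remaining lists are read against the 4.18% of all genes that were up and the 10.8% that were down at the same total. Of 23 NRF2 targets 1 was up (SLC7A11) and 6 down (26.1%; GCLM by −1.09), and of 27 lysosome and autophagy genes 2 were up (NPC1 and NPC2) and 4 down (14.8%; CTSD by −0.91 and SQSTM1 by −0.86). Of 18 chromatin genes 3 were up and 3 down (16.7% each), of 32 SR proteins and hnRNPs 1 was up (TRA2A by 0.79) and 3 down (HNRNPDL by −0.73), and of 44 subunits of complexes II to V 2 were up and 3 down. NF-kB targets had 2 of 7 genes down (28.6%; SOD2 by −1.05 and NFKBIB by −0.70), cAMP targets 1 of 7 (DUSP1), and hypoxia genes 1 of 15 up (DDIT4). Among 275 ZNF genes 4 were up (1.45%) and 10 down (3.64%).

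Levels of the leading genes in the 4 other runs are given beside the same control mean, since all comparisons share the control cells. ASNS had a mean level at the same total of 2.98 in control, 5.95 and 5.29 after 2 and 16 h of celecoxib, 3.16 and 4.55 after 16 and 48 h of paclitaxel, and 5.47 with both drugs. CHAC1, DDIT3 and TRIB3 were likewise close to their control means at 16 h of paclitaxel (0.90, 2.62 and 0.62, against 0.59, 2.99 and 0.41). Set directly against the paclitaxel 16 h run, the celecoxib 2 h run was higher by 2.79 for ASNS, 2.47 for DDIT3, 2.06 for CHAC1 and 1.39 for ATF4. The common total is still the control median. ASNS, DDIT3 and CHAC1 were chosen by their rise in these celecoxib 2 h cells, so this is no separate check. IFITM1 was above its control mean of 4.11 in all other runs, at 6.19 and 6.04 with celecoxib, 5.51 and 7.06 with paclitaxel, and 6.55 with both drugs. TRIB3 was higher at 16 h (3.77) than at 2 h of celecoxib (2.06), and so was SLC3A2 (5.91 and 5.06).

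For the falls, CDC20 had a mean level of 5.18 in control, 2.41 and 2.75 after the short and the long celecoxib treatment, 3.26 and 2.92 after those with paclitaxel, and 2.11 with both drugs, so the control run was the highest of the 6. MSRB1 was lowest at 2 h of celecoxib (1.79) and had 3.00 at 16 h, between 3.02 and 3.14 with paclitaxel, 2.87 with both drugs and 4.09 in control. HSPA8 had 7.86 in control, 6.64 after 2 h and 7.73 after 16 h of celecoxib, and PSMB10 3.85, 2.33 and 3.64. The proteasome list as a whole did not follow PSMB10, with median differences from control of −0.56 after 2 h and −0.77 after 16 h of celecoxib, −0.37 and −0.56 with paclitaxel and −0.50 with both drugs. MCM7 (4.76, 3.66 and 2.67) and AURKB (5.06, 2.85 and 1.51) were lower still at 16 h. Of the 1048 falls, 443 also passed the limit downward at the same total in the celecoxib 16 h run. The paclitaxel 16 h run had 655 of them, the paclitaxel 48 h run 504 and the combination run 476. Of the 108 rises, 84, 37, 73 and 88 passed it upward in these runs, in the same order. All these counts share the control cells, and the part of the control run in them was not tested. Each run is 1 sample, and these orders and counts have no replicate check.

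**Figure D5:**
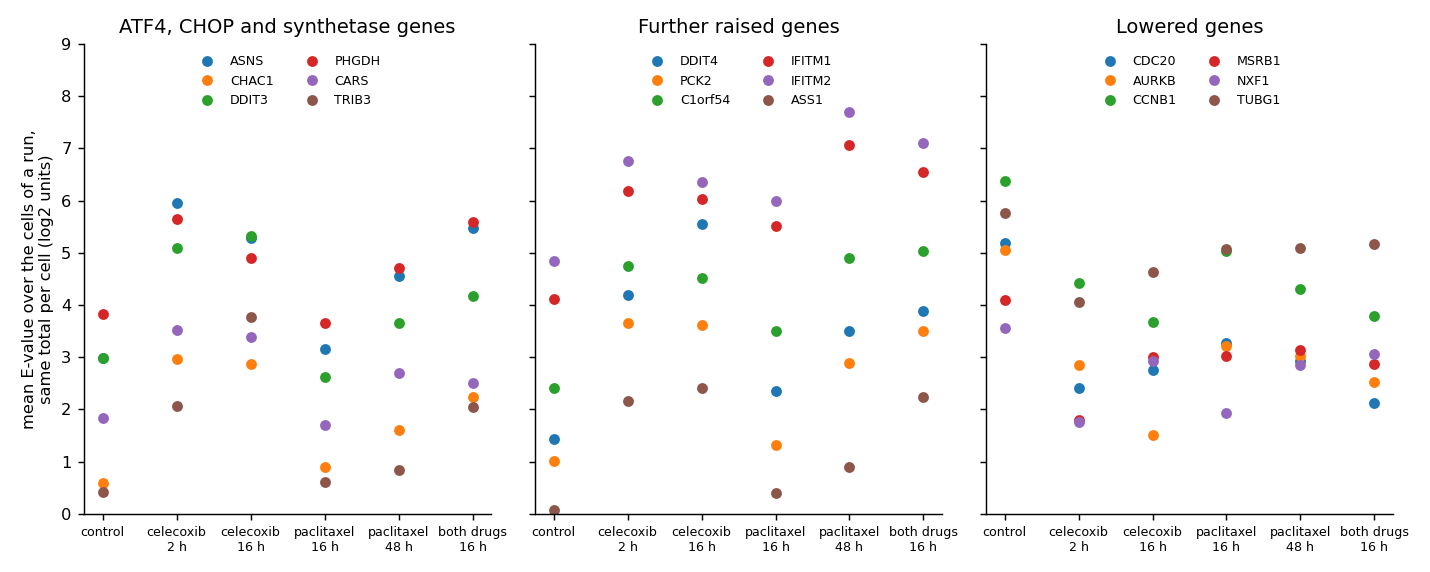
Mean E-value over the cells of each run at the same total per cell (log2 units) for 18 leading genes in the 6 runs. ASNS, CHAC1, DDIT3 and TRIB3 are close to control at 16 h of paclitaxel and higher with celecoxib, and ASNS is also higher at 48 h of paclitaxel. IFITM1 and IFITM2 are higher in all treated runs, and CDC20, CCNB1 and AURKB are highest in control.

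The genes that moved also differed in level and length. The 108 rises had a median control level of 1.40, close to that of all genes (1.45), and the 1048 falls one of 3.23. Of genes with a control level between 4 and 6, 27.0% were down on both scales, against 0.191% of those under 1, which have little room to fall. The shares given above for gene lists were not matched for level. The median length of the canonical transcript was 2032 bases for rises and 2131 for falls, against 3302 for all genes. Among genes with control levels of 2 to 6, the share down on both scales was 28.2%, 29.7%, 24.8% and 16.3% from the shortest to the longest of 4 equal groups by transcript length. The index block difference in the paclitaxel 48 h run had medians of −0.14, −0.12, −0.02 and 0.03 over the same 4 groups, and its part in the result was not tested.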

How the data were processed

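Single A2780 cells had been captured on the Fluidigm C1 system and copied by Smart-seq2. The authors used Trim Galore for adapters, then Bowtie2 and RSEM 1.3.0 to estimate TPM on hg38 transcripts plus 3 spike-in sequences, normalized each cell to a spike-in, removed cells with low housekeeping expression, and deposited log2 values, E = log2(N/10 + 1), for genes seen in more than 30% of cells in some condition.

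From these, N was recovered, and every cell was rescaled to the median total of the 46 control cells. Means of E-values, SDs over cells and shares of cells above 0 with exact 95% Clopper-Pearson intervals were computed. Since each condition was 1 run, no test was made. Doublets were not called, since that needs counts, and depth per cell is unknown.

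The members and gene lists were chosen with earlier results of these data known. Named genes were the 15 largest rises and falls past the limit on both scales, the 4 members of each list with the largest differences, all immediate early and ATF4 or CHOP genes, and the 5 largest gains and losses in share of cells. Chosen after their values were seen were FARSB, RARS, SARS, MARS, CCNB2, AURKA, BIRC5, PCNA, HSPA5, PSMD7, HERPUD1, ATF6, IFI35, NPC1, ALDOC and the genes named only for a promoter match. The alternatives were a pseudocount of 1, linear means, medians, a 2-fold limit, detection limits of 30 and 50%, totals without abundant genes, and cells with at least 6000 genes. The median total of all cells as the common total was added after seeing the data. Falls in the interferon list are not reported here. Promoters came from RefSeq, gene coordinates from GENCODE on hg38, and S and G2/M genes from Seurat 5.3.0. Python 3.11.15 was used with pandas 2.3.3, numpy 2.4.6, matplotlib 3.10.9 and scipy 1.17.1, and R 4.3.3 for the Seurat lists.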

Additional observations from a re-analysis of the deposited data

How the results depend on the processing

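The counts depended on the alternatives. On the deposited scale, where 108 genes were up and 2486 down, a pseudocount of 1 gave 378 and 4298, linear means 710 and 3772, and a 2-fold limit 21 and 859. Median E-values gave 186 up, and cells with at least 6000 genes (39 control, 38 celecoxib 2 h) gave 223 up. At the same total, where 404 were up and 1048 down, a pseudocount of 1 gave 985 and 2564, median E-values 636 and 1588, and a 2-fold limit 84 and 207. Linear means gave 2142 up, and cells with at least 6000 genes 621 up. The share of rises among genes past the limit, 27.8%, became 68.0% and 39.4% in these last 2, and on the deposited scale linear means moved it from 4.16% to 15.8%, cells with at least 6000 genes to 9.94% and a pseudocount of 1 to 8.08%. The other counts stayed within 1.5 times.

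List medians moved by more than the spread over members on the deposited scale for endoplasmic reticulum chaperones (−0.46), nucleolar factors (−0.82), RNA polymerase II (−0.88), SR proteins and hnRNPs (−0.69), chromatin genes (−0.72), complex I (−0.42), complexes II to V (−0.54), cytosolic (−0.37) and mitochondrial (−0.84) ribosomal proteins and the proteasome (−1.08). With a pseudocount of 1 the BCL2 family (−0.86), nucleolar factors (−0.76) and S phase genes (−0.91) moved, and with linear means the prostaglandin genes (0.68). The medians of G2/M and S phase genes shrank to −0.12 and −0.14 in cells with at least 6000 genes and to −0.12 and −0.13 with linear means, and that of the ATF4 and CHOP list grew from 0.80 to 1.42 with a pseudocount of 1 and 1.33 with linear means. Of the named genes past the limit 2 changed sign: GDF15 turned to −0.12 with linear means, and NDUFS7 (0.59 at the same total) to −0.028 on the deposited scale. Under each of the 4 alternatives tried for them, between 189 and 209 of the named genes moved by less than the SD over control cells. That SD is wide: only 47 of the 108 rises and 218 of the 1048 falls exceeded it at the same total. A shift below it can be as large as the difference itself, so these counts do not show stability. The cause of these shifts was not tested. No paired analysis was possible because the result comes from no test. With 1 run per condition and unknown read depth, no difference here can be set against the spread between cultures.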
